A study of Mus musculus with 12 samples.

Results

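Integrins are the receptors by which cells hold on to their surroundings, and laminins are the main adhesive proteins of the basement membrane that many integrins bind. The 37 genes described here are all the protein-coding mouse genes named as an integrin alpha chain, an integrin beta chain or a laminin chain in a count table of 35275 genes. They comprise 26 integrin genes (18 alpha and 8 beta chains) and 11 laminin genes (5 alpha, 3 beta and 3 gamma chains). They were chosen by name.

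RNA was sequenced from the kidneys of 12 C57BL/6J mice at 6 months of age, 4 in each of 3 groups. WT mice carried no engineered allele. RC/RC mice were homozygous for a knock-in missense allele of Pkd1 that lowers the function of polycystin-1, and they develop cystic kidney disease that advances slowly. RC/RC:Casp1KO mice carried the same homozygous Pkd1 allele and, in every cell, a homozygous TALEN-made deletion in Casp1, the gene of the inflammatory protease caspase-1, from 1 deletion line. The groups address whether polycystic kidneys differ from normal kidneys and whether removing caspase-1 alters them. Each group held 2 females and 2 males, but the columns of the table name the group and a mouse number only. Sex was not read from the counts either, so the sexes were analysed together and their part was not tested. Single mice are named here by a short form of the group (WT, RC for RC/RC and KO for RC/RC:Casp1KO) and that number: WT2, WT3, WT4 and WT6, then RC105, RC139, RC140 and RC143, then KO42, KO60, KO70 and KO105. Between 18019819 and 24869454 reads per mouse were counted in genes.

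An integrin is a pair of an alpha and a beta chain that spans the cell membrane and links proteins outside the cell to the actin skeleton inside it. The beta chains of Itgb2 and Itgb7 are made by leukocytes, which use them to leave the blood and hold on to other cells, whereas the chain of Itgb1 pairs with most alpha chains that bind collagen, laminin or fibronectin. A laminin is a trimer of an alpha, a beta and a gamma chain, and the tubules of the adult kidney rest on a basement membrane whose main laminin alpha chain is that of Lama5.

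Casp1 was low but read in every library. Its level was 1.37, 0.863, 0.867 and 0.939 FPKM in WT2, WT3, WT4 and WT6. It was 2.25, 2.56, 2.85 and 1.75 FPKM in RC105, RC139, RC140 and RC143. The values of KO42, KO60, KO70 and KO105 were 0.444, 0.257, 0.698 and 0.444 FPKM, below every mouse of both other groups. FPKM is used here for the count of a gene relative to its length in the table and to the total of its library, after edgeR's TMM scaling between libraries. Casp1 was higher in RC/RC than in WT kidneys, with a log2 fold change of 1.21 (SE 0.25, n = 4 and 4, adjusted p = 0.0142), and lower in RC/RC:Casp1KO than in RC/RC kidneys, with a log2 fold change of -2.35 (SE 0.32, adjusted p = 0.00514). The adjusted p-values throughout come from edgeR's quasi-likelihood test on 8 mice with Benjamini-Hochberg adjustment over all tested genes. The SE of a log2 fold change is its absolute value divided by the square root of the F statistic of that test. A gene is called higher or lower where its adjusted p is under 0.05. Against WT the value for RC/RC:Casp1KO was -1.12 (SE 0.35, adjusted p = 0.128) although the groups did not overlap. The table gives 1 count for the whole gene, so reads of the deleted part were not separated from the rest. Pkd1 overlapped between all groups, which checks nothing of a missense allele. The kidney markers Slc34a1 of the proximal tubule, Umod of the thick ascending limb and Aqp2 of the collecting duct were abundant in every group, with WT means of 1896.1, 1597.3 and 204.3 FPKM.

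The leukocyte integrin alpha chains Itgal, Itgam, Itgax and Itgad all lie on chromosome 7 (mm10, plus strand). Itgal (ENSMUSG00000030830) occupies chr7:127296260-127335137. Further along, Itgam (ENSMUSG00000030786, chr7:128062640-128128160), Itgax (ENSMUSG00000030789, chr7:128129547-128150656) and Itgad (ENSMUSG00000070369, chr7:128154376-128223816) stand in a row, with 1386 bases between Itgam and Itgax and 3719 bases between Itgax and Itgad. Their beta chain Itgb2 (ENSMUSG00000000290) is at chr10:77530252-77565708 (plus strand), and Itgb7 (ENSMUSG00000001281) is at chr15:102215995-102231935 (minus strand). The following are the RefSeq promoter windows (GRCm38.p6, 5′ to 3′ on the strand of the gene, 250 bases before to 50 after the start) of the leukocyte integrins that had one, since 5 of the 6 tested genes of this group differed between RC/RC and WT kidneys. They cover chr7:128062390-128062689 for Itgam, chr7:128129300-128129599 for Itgax and chr15:102231886-102232185 for Itgb7. Capitals mark the letters GAGGAA or their reverse complement TTCCTC, the core bound by PU.1, a transcription factor of myeloid and B cells.
Itgam: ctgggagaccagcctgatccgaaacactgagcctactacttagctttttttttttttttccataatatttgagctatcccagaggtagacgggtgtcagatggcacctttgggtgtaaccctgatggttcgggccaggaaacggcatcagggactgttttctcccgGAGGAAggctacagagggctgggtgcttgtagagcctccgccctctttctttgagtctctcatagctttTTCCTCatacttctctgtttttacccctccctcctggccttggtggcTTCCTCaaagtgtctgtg
Itgax: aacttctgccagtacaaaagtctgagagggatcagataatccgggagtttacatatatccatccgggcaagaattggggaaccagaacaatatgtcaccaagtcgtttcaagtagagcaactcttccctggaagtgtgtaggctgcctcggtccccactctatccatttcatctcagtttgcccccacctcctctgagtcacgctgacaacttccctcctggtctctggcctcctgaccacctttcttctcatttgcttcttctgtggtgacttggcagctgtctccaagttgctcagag
Itgb7: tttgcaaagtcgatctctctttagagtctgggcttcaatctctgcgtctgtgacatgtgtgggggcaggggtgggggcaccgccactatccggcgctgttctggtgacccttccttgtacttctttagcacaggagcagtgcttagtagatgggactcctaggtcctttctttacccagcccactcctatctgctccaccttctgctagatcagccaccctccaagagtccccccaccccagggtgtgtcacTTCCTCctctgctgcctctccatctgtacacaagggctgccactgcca
The letters occur 3 times in the Itgam window, with first bases at -84, -15 and 33 (the start base being 1), and 1 time in the Itgb7 window, at 3. They do not occur in the window of Itgax, which lies next to Itgam. Of all 32851 promoter windows 28.3% hold them, against 14 of the 26 windows (53.8%) of the 23 integrin and laminin genes with an entry. By group, 2 of the 3 leukocyte integrin windows (66.7%) and 12 of the 23 other windows (52.2%) hold them. The higher share was thus not confined to the leukocyte integrins. A match is a run of letters and not a measured site. Itgal, Itgae, Itgad and Itgb2 had no entry.

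In WT kidneys the 37 genes spanned more than 3 orders of magnitude. Among beta chains the order was Itgb1 (83.0 ± 3.85 FPKM, mean ± SD, n = 4), Itgb5 (52.5 ± 8.37), Itgb8 (31.0 ± 5.37) and Itgb6 (18.7 ± 3.76), and the ranges of these neighbours did not overlap between mice. Among alpha chains Itga6 (29.6 ± 11.1 FPKM) and Itgav (22.2 ± 1.74) led with overlapping ranges, followed by Itga1 (14.3 ± 2.11) and Itga3 (13.3 ± 2.22), whose ranges also overlapped. The leading laminin chains were Lamb1 (28.2 ± 1.3 FPKM), Lamb2 (14.2 ± 1.12), Lama5 (11.9 ± 5.15) and Lamc1 (8.16 ± 0.271), of which Lama5 overlapped with both of its neighbours. Lama5 made up 51.6% ± 4.44 of the summed FPKM of the laminin alpha chains, Lamb1 65.0% of the beta chains and Lamc1 48.0% of the gamma chains. At the other end, Itgad had 0 to 8 counts per mouse and was not tested in any comparison.

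Several libraries stood apart in the genes described here or in cell type markers. KO70 had a summed level of 24.3 FPKM over the 7 leukocyte integrin genes, against 9.46, 9.23 and 10.5 FPKM in KO42, KO60 and KO105. Its markers of macrophages and dendritic cells summed to 818.1 FPKM, against 433.5 to 486.9 FPKM in those 3 mice. WT4 had 26.5 FPKM of urothelial markers, against 1.85 to 6.23 FPKM in the other WT mice, and RC139 had 341.6 FPKM of fibroblast and pericyte markers, against 155.4 to 203.3 FPKM in the other RC/RC mice.

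Reads were not stated to be counted by strand, and some genes share their place with others. The body of Itga7 overlaps Mettl7b on the opposite strand, which has over 10 times the counts of the integrin, so values of Itga7 may be uncertain, and those of Itga10 may be as well. Itgae overlaps Gsg2 on the opposite strand at 148% of its own count, and Itga9 overlaps Gm2415 on the opposite strand at 12.8%. These are overlaps of whole gene bodies, introns included, and shared exons were not examined; reads from a shared exon could not be told apart without strand. Itga1 overlaps Pelo on the same strand at 32.8% of its count, and its transcripts share 2183 bases at 100% identity with those of Mocs2, which had 22023 counts over the 12 mice beside 21025 for Itga1, so values of Itga1 are uncertain. By transcript sequence, Itgb4 shares 468 bases at 99.145% identity with Galk1 (14839 counts beside 2611 for Itgb4) and Lamb1 shares 305 bases at 100% identity with Dld (73519 counts beside 48553 for Lamb1), so how reads of these stretches were assigned bears on both. In the reference annotation, Itgam shares 3453 bases at 99.913% identity with Gm49368, a transcript absent from the count table.

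The first comparison asked how adhesion genes differ between polycystic and normal kidneys. In RC/RC against WT kidneys, 9 of the 36 tested genes (25.0%) were called higher, against 9.76% of all 15243 tested genes, and none was called lower, against 3.18%. The genes called were the leukocyte chains Itgam, Itgb2, Itgb7, Itgal and Itgax, the fibronectin receptor chain Itga5, the collagen receptor chain Itga11, and the laminin chains Lama4 and Lamc1. DESeq2 also called none lower, and 2 genes, Itgb8 and Lama3, were lower at an unadjusted p under 0.05 by edgeR, against 12% of all genes. In 13 genes (36.1%) every RC/RC mouse was above every WT mouse, against 12.7% of all genes, and no gene showed the opposite, against 6.58%. The median log2 fold change was 0.24 over the 36 genes, 0.34 over the 25 tested integrin genes and 0.09 over the 11 laminin genes, beside -0.02 over all genes.

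**Figure D1:**
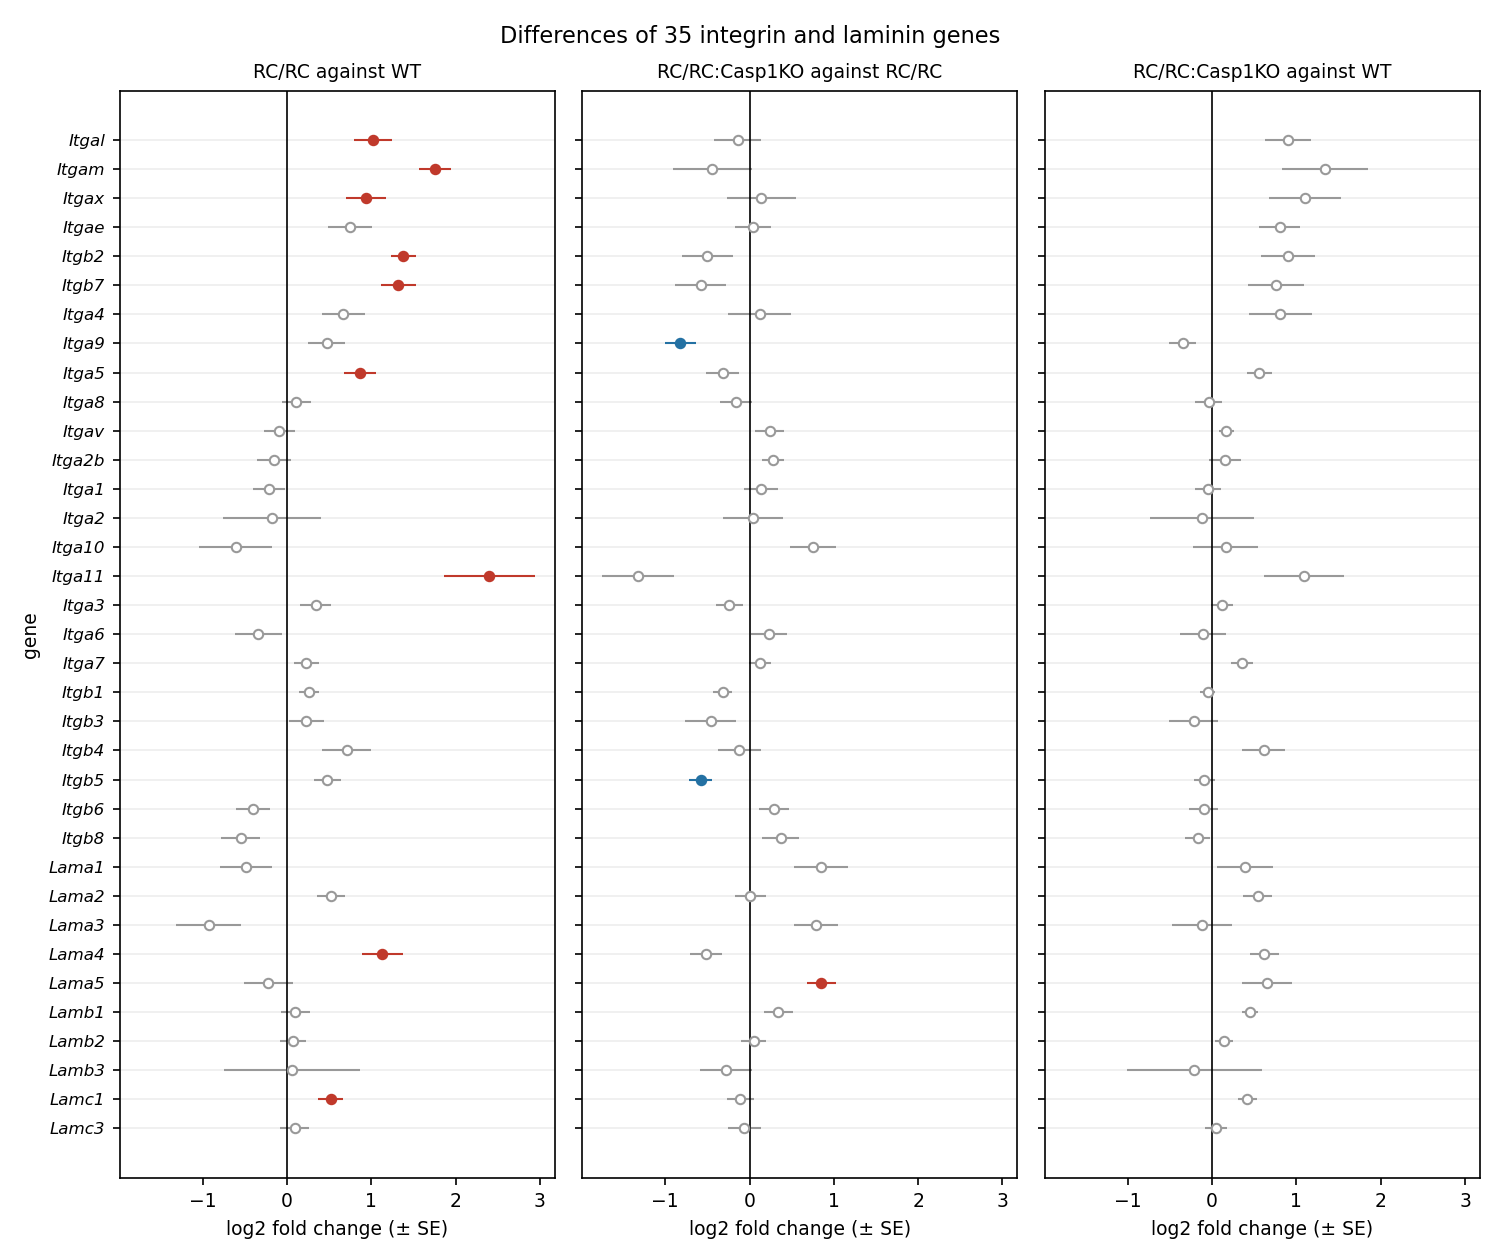
Log2 fold change (x axis) of 35 integrin and laminin genes (y axis) in each comparison of 4 against 4 mice, from edgeR; bars are ± SE. Filled red points were called higher, filled blue points lower and open grey points not called: 9 genes are red in RC/RC against WT, 1 is red and 2 are blue in RC/RC:Casp1KO against RC/RC, and none is filled in RC/RC:Casp1KO against WT.

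The leukocyte integrins were higher in RC/RC kidneys as a group. All 6 tested members were above the whole WT range in every RC/RC mouse, against 12.7% of all genes, 5 of the 6 were called higher, against 9.76%, and their median log2 fold change was 1.17. In bulk kidney RNA, more cells of a type and more RNA per cell cannot be told apart.

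Itgam encodes CD11b, the alpha chain of the complement receptor of monocytes, macrophages and neutrophils. Its level was 0.528, 0.608, 0.603 and 0.8 FPKM in WT2, WT3, WT4 and WT6, and 2.62, 1.92, 1.98 and 2.14 FPKM in RC105, RC139, RC140 and RC143. The corresponding values were 0.784, 0.793, 3.67 and 1.14 FPKM in KO42, KO60, KO70 and KO105. RC/RC lay wholly above WT, and in the double mutant KO70 was the highest of all 12 mice while the other 3 fell below every RC/RC mouse. The log2 fold change of RC/RC against WT was 1.76 (SE 0.19, adjusted p = 0.000688).

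Itgb2 encodes CD18, the beta chain with which the products of Itgal, Itgam, Itgax and Itgad pair. WT mice had 2.69, 2.42, 1.9 and 2.19 FPKM, and RC/RC mice 6.2, 7.01, 5.67 and 5.18 FPKM. RC/RC:Casp1KO mice had 2.85, 3.04, 7.63 and 3.5 FPKM, all above the WT range, with KO70 again above every other mouse. Itgb2 rose by 1.38 on the log2 scale in RC/RC against WT kidneys (SE 0.15, adjusted p = 0.00076).

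Itgb7 encodes the beta chain of the gut-homing and intraepithelial lymphocyte integrins. The WT values were 1.79, 1.22, 1.1 and 1.28 FPKM, the RC/RC values 3.03, 3.89, 3.79 and 2.81 FPKM, and the RC/RC:Casp1KO values 1.55, 1.67, 3.91 and 1.93 FPKM. RC/RC and WT did not overlap, and 3 of the 4 double mutant mice were below every RC/RC mouse. The difference between RC/RC and WT was 1.32 (SE 0.21, adjusted p = 0.00375) on the log2 scale.

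Itgal encodes CD11a, the alpha chain of the lymphocyte receptor for Icam1. Its levels were 0.989, 1.06, 1.12 and 0.798 FPKM in WT, 2.23, 2.66, 1.79 and 1.43 FPKM in RC/RC, and 1.37, 1.61, 2.94 and 1.43 FPKM in RC/RC:Casp1KO mice. Both mutant groups lay wholly above WT and overlapped with each other. Itgal was called higher in RC/RC against WT, with a log2 fold change of 1.02 (SE 0.22, adjusted p = 0.0144). Itgax, which encodes CD11c of dendritic cells and many macrophages, was 0.817 to 1.36 FPKM in WT and 1.66 to 3.01 FPKM in RC/RC mice, a log2 fold change of 0.94 (SE 0.24, adjusted p = 0.0297). That call was lost without WT3 (0.81, adjusted p = 0.0672), WT4 (0.88, adjusted p = 0.0714), RC105 (0.75, adjusted p = 0.0705) or RC140 (1.00, adjusted p = 0.0506), and with all 12 mice in one fit (adjusted p = 0.114). Itgae, the CD103 chain of tissue-resident T cells and dendritic cells, did not overlap between RC/RC and WT but was not called, at 0.75 (SE 0.26, adjusted p = 0.0881). With all 12 mice in one fit Itgae was called higher (0.75, adjusted p = 0.0469). The Itgam, Itgb2, Itgb7 and Itgal calls held in each of the 6 other fits and in each of the 8 fits that left out 1 mouse.

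**Figure D2:**
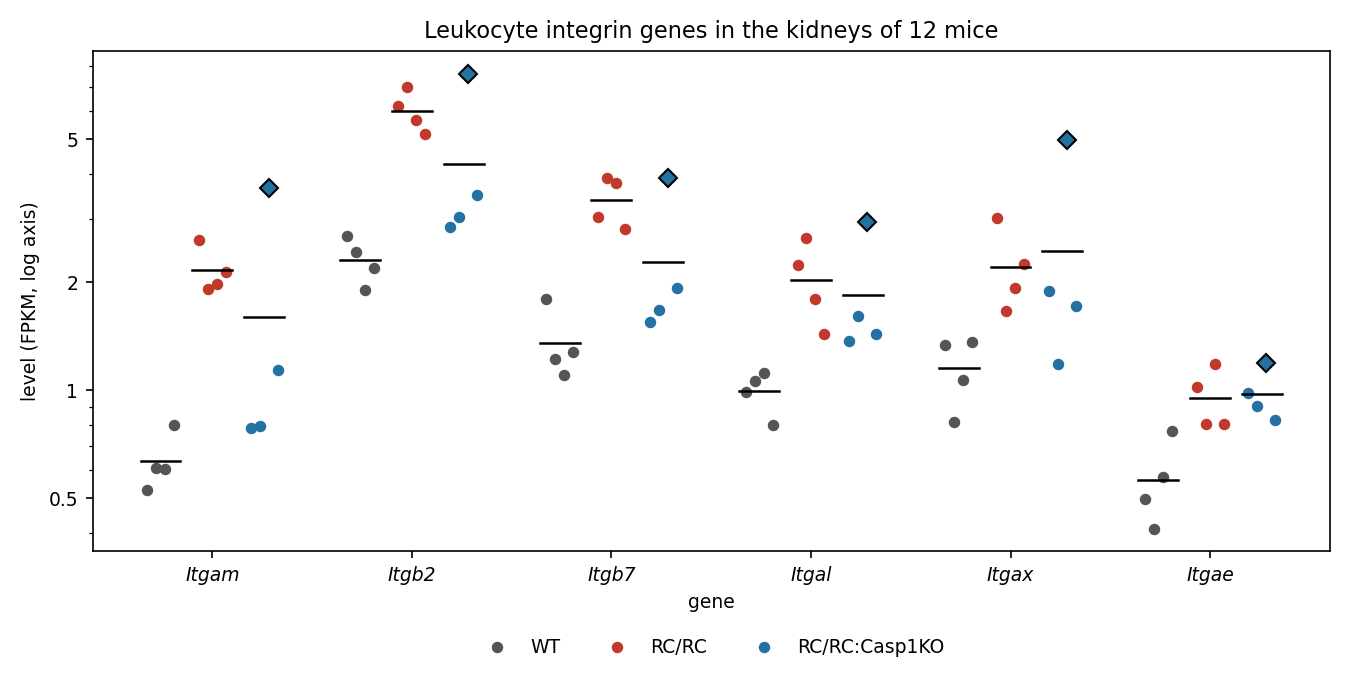
Level of 6 leukocyte integrin genes (y axis, FPKM on a log axis) in each mouse, by gene and group; black bars are group means over 4 mice, and the diamonds are KO70. Itgb2 of the 4 RC/RC mice lies between 5.18 and 7.01 FPKM, above all WT mice, and the diamond stands above the other RC/RC:Casp1KO mice in every gene.

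Markers of leukocytes moved with these genes. The markers of each cell type were listed with earlier results of these data known. In RC/RC against WT kidneys, 7 of 9 for macrophages and dendritic cells were called higher, against 9.76% of all genes. So were 6 of 6 for T and NK cells and 6 of 6 for B and plasma cells, while 0 of the 3 tested neutrophil markers were called. Macrophage and dendritic cell markers, led by Cd74, summed to 218.8 to 350.5 FPKM in WT and 635.8 to 863.3 FPKM in RC/RC mice. The B and plasma cell sum, led by Jchain, was 4.58 to 9.35 FPKM in WT and 108.9 to 183.4 FPKM in RC/RC mice, and the T and NK cell sum, led by Trac, was 3.03 to 4.85 and 9.75 to 19.9 FPKM. Neutrophil markers, led by S100a8, summed to 0.938 to 4.23 FPKM in WT and 2.4 to 6.46 FPKM in RC/RC mice, with 1 marker at 0 in 6 of these 8 mice. Their part in the integrin differences was not tested.

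Levels were also set against Ptprc, which encodes the CD45 present on all leukocytes. Ptprc rose by 0.87 on the log2 scale in RC/RC against WT kidneys (adjusted p = 0.00779). The ratio of Itgam to Ptprc was 0.16, 0.234, 0.191 and 0.263 in WT and 0.379, 0.319, 0.446 and 0.446 in RC/RC mice, with no overlap. In RC/RC:Casp1KO mice it was 0.171, 0.25, 0.327 and 0.237, overlapping with both. The ratio of Itgb2 to Ptprc was 0.602 to 0.932 in WT, 0.895 to 1.28 in RC/RC and 0.623 to 0.959 in RC/RC:Casp1KO mice, with overlap between all groups. The ratio of Itgb2 to the summed alpha chains it pairs with was 0.662 to 0.967 in WT and 0.788 to 1.12 in RC/RC mice, which overlapped. These ratios are given as a description with no test.

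Among alpha chains outside the leukocyte pairs, Itga5 and Itga11 were called higher in RC/RC kidneys. Itga5 encodes the alpha chain of the classical fibronectin receptor (ENSMUSG00000000555, chr15:103344289-103366763, minus strand). Its levels were 2.61, 2.7, 3.14 and 2.43 FPKM in WT2, WT3, WT4 and WT6, and 4.21, 6.79, 5.17 and 3.84 FPKM in RC105, RC139, RC140 and RC143. They were 3.02, 4.08, 4.53 and 4.35 FPKM in KO42, KO60, KO70 and KO105. RC/RC lay above WT in every mouse, and the double mutant overlapped with both. The log2 fold change of RC/RC against WT was 0.87 (SE 0.19, adjusted p = 0.0157), and its adjusted p was 0.052 without WT6, at a log2 fold change of 0.82.

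Itga11, ENSMUSG00000032243 at chr9:62677826-62783982 (plus strand), encodes a collagen receptor chain of fibroblasts. It was near the lower limit of the counts, with 4 to 19 counts in WT, 31 to 91 in RC/RC and 16 to 33 in RC/RC:Casp1KO mice. As levels these were 0.0963, 0.0578, 0.0402 and 0.179 FPKM in WT, 0.414, 0.963, 0.337 and 0.303 FPKM in RC/RC, and 0.178, 0.139, 0.302 and 0.181 FPKM in RC/RC:Casp1KO mice. The groups RC/RC and WT did not overlap, and RC139, the mouse with the most fibroblast markers, was the highest. Its log2 fold change in RC/RC against WT was 2.40 (SE 0.54, adjusted p = 0.0191), the largest of the 36 genes, and the call was lost without WT3 (2.23, adjusted p = 0.054). Without RC139 it was 1.85 (adjusted p = 0.0472). All 5 markers of fibroblasts and pericytes were called higher in RC/RC kidneys, against 9.76% of all genes. Their sum, led by Dcn, was 36.8 to 51.0 FPKM in WT and 155.4 to 341.6 FPKM in RC/RC mice. Their part in the Itga11 difference was not tested.

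The abundant epithelial receptors were not called. Itga6, the most abundant alpha chain and a laminin receptor of epithelia, was 39.6, 38.1, 16.6 and 24.1 FPKM in WT mice, 30.2, 25.5, 16.6 and 21.2 FPKM in RC/RC mice, and 24.5, 34.2, 20.4 and 30.0 FPKM in RC/RC:Casp1KO mice. The 3 groups overlapped, and WT mice spread the most. Between RC/RC and WT the log2 difference was -0.34 (SE 0.28, adjusted p = 0.44). The other laminin-binding chains Itga3 and Itga7 differed by 0.34 (adjusted p = 0.235) and 0.23 (adjusted p = 0.352). The collagen receptor chain Itga1 differed by -0.21 (adjusted p = 0.496) and Itgav, which pairs with several beta chains to bind the RGD motif, by -0.09 (adjusted p = 0.771). Itga4, a receptor chain for Vcam1 and fibronectin on leukocytes, differed by 0.67 (adjusted p = 0.114), and was called without RC143 (0.83, adjusted p = 0.042).

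Itgb1 was the most abundant of all 37 genes (ENSMUSG00000025809, chr8:128685654-128733200, plus strand). Its levels were 85.1, 86.9, 82.1 and 78.1 FPKM in WT, 105.1, 109.6, 92.7 and 93.2 FPKM in RC/RC, and 74.6, 82.2, 82.5 and 80.8 FPKM in RC/RC:Casp1KO mice. Each RC/RC mouse was above each mouse of both other groups, by a small margin that was not called, at 0.26 against WT (SE 0.12, adjusted p = 0.166). Itgb8, which with Itgav activates latent TGF-beta, was 30.6, 38.2, 25.3 and 29.8 FPKM in WT and 30.2, 15.7, 15.2 and 23.9 FPKM in RC/RC mice. These overlapped, with a log2 difference of -0.55 (SE 0.23, adjusted p = 0.152), and Itgb8 was called lower without RC105 (-0.78, adjusted p = 0.0498). Itgb6, an epithelial partner of Itgav, differed by -0.40 (adjusted p = 0.208) and Itgb4, the partner of Itga6 in hemidesmosomes, by 0.71 (adjusted p = 0.138). The collagen receptor chains Itga2 (-0.18, adjusted p = 0.858) and Itga10 (-0.61, adjusted p = 0.377), the nephronectin receptor chain Itga8 (0.11, adjusted p = 0.72), and the platelet chains Itga2b (-0.15, adjusted p = 0.648) and Itgb3 (0.23, adjusted p = 0.51) were not called, and their groups overlapped.

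**Figure D3:**
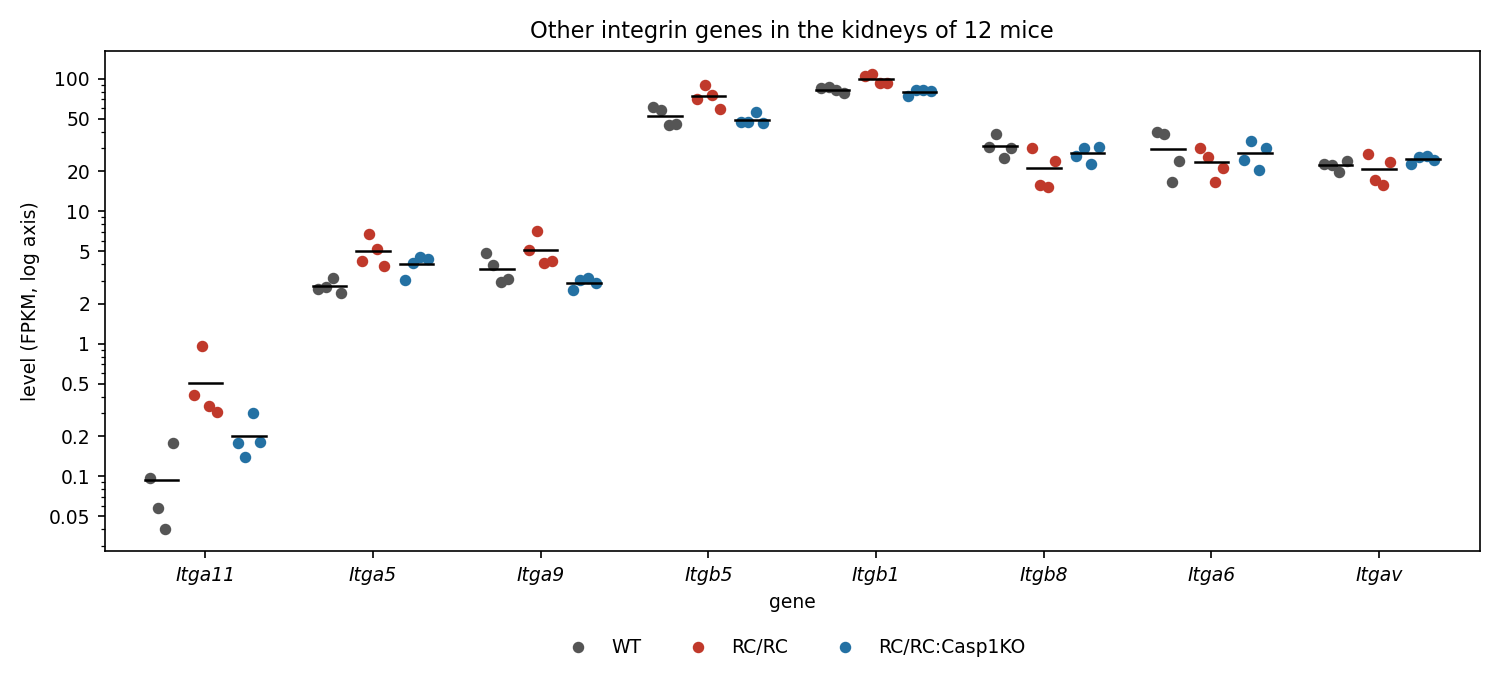
Level of 8 integrin genes outside the leukocyte pairs (y axis, FPKM on a log axis) in each mouse, by gene and group; black bars are group means over 4 mice. Itgb1 in the RC/RC mice (92.7 to 109.6 FPKM) lies above both other groups, whereas Itga6 overlaps between all 3 groups.

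Of the laminins, Lama4 and Lamc1 were called higher in RC/RC kidneys. Lama4 (ENSMUSG00000019846, chr10:38965515-39110188, plus strand) encodes the alpha chain of vessel and mesenchymal laminins. WT2, WT3, WT4 and WT6 had 1.91, 1.93, 1.64 and 1.12 FPKM, and RC105, RC139, RC140 and RC143 had 3.37, 5.23, 3.27 and 2.61 FPKM. KO42, KO60, KO70 and KO105 had 2.39, 2.56, 2.49 and 2.64 FPKM, all above every WT mouse and, except KO105, below every RC/RC mouse. Lama4 was higher by 1.13 on the log2 scale in RC/RC against WT (SE 0.24, adjusted p = 0.0151), a call that held in each of the 6 other fits and without any 1 mouse. None of the 5 endothelial markers was called, against 9.76% of all genes called higher and 3.18% lower. Their summed level, led by Pecam1, was 73.9 to 98.6 FPKM in WT and 92.7 to 133.8 FPKM in RC/RC mice. All 5 fibroblast and pericyte markers were called higher (median 2.47, against 9.76% of all genes), and RC139 was the highest RC/RC mouse for both their sum and Lama4. Without RC139 the Lama4 log2 fold change was 0.87 (adjusted p = 0.0309). The part of these markers in the Lama4 difference was not tested.

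Lamc1 (ENSMUSG00000026478, chr1:153218922-153332786, minus strand) encodes the gamma chain of most laminins. It was 8.44, 8.05, 8.3 and 7.83 FPKM in WT, 12.7, 14.8, 9.8 and 9.53 FPKM in RC/RC and 8.76, 11.3, 11 and 12.3 FPKM in RC/RC:Casp1KO mice. Both mutant groups lay wholly above WT. The log2 fold change of RC/RC against WT was 0.52 (SE 0.15) with an adjusted p of 0.0499, at the threshold. The call was lost without WT2 (adjusted p = 0.0838), WT3 (0.104), WT4 (0.0953) or WT6 (0.129) and without RC105 (0.0945) or RC139 (0.11). It was also lost with RLE size factors (0.0554), with a minimum of 1 count in the 8 mice (0.0541) and with at least 10 counts in every mouse (0.0515).

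The other laminin chains were not called in RC/RC against WT kidneys. Lamb2 of mature basement membranes (0.07, adjusted p = 0.785) and Lamc3 (0.09, adjusted p = 0.75) overlapped between the groups. Lamb1, the most abundant laminin chain and the partner of Lama5 and Lamc1 in kidney development, was 28.1, 29.8, 26.7 and 28.2 FPKM in WT and 41.7, 30.6, 25.9 and 23.8 FPKM in RC/RC mice, a log2 difference of 0.10 (SE 0.17, adjusted p = 0.719). Lama2 of mesenchymal basement membranes (0.52, adjusted p = 0.0744) did not overlap between these groups but was not called. Lama3, at -0.93 (SE 0.39, adjusted p = 0.152), was low in WT2 and WT3 (2.17 and 1.88 FPKM) and high in WT4 and WT6 (5.36 and 5.3 FPKM), and Lama1 split the WT mice in the same way (1.78 and 1.72 against 3.61 and 3.24 FPKM). Lamb3, which joins Lama3 in an epithelial laminin, rested on WT4, the mouse with the most urothelial markers. Its WT levels were 0.362, 0.374, 3.4 and 0.206 FPKM beside 0.703 to 1.74 FPKM in RC/RC mice, and its log2 difference was 0.06 (adjusted p = 0.97) with WT4 and 1.83 (adjusted p = 0.0234) without it. Urothelial markers, led by Upk1a, gave no call among 6 tested in this comparison. Their sum was 26.5 FPKM in WT4 and 24.7 FPKM in RC139, and no RC/RC mouse exceeded 1.74 FPKM of Lamb3. The part of these markers in Lamb3 was not tested.

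**Figure D4:**
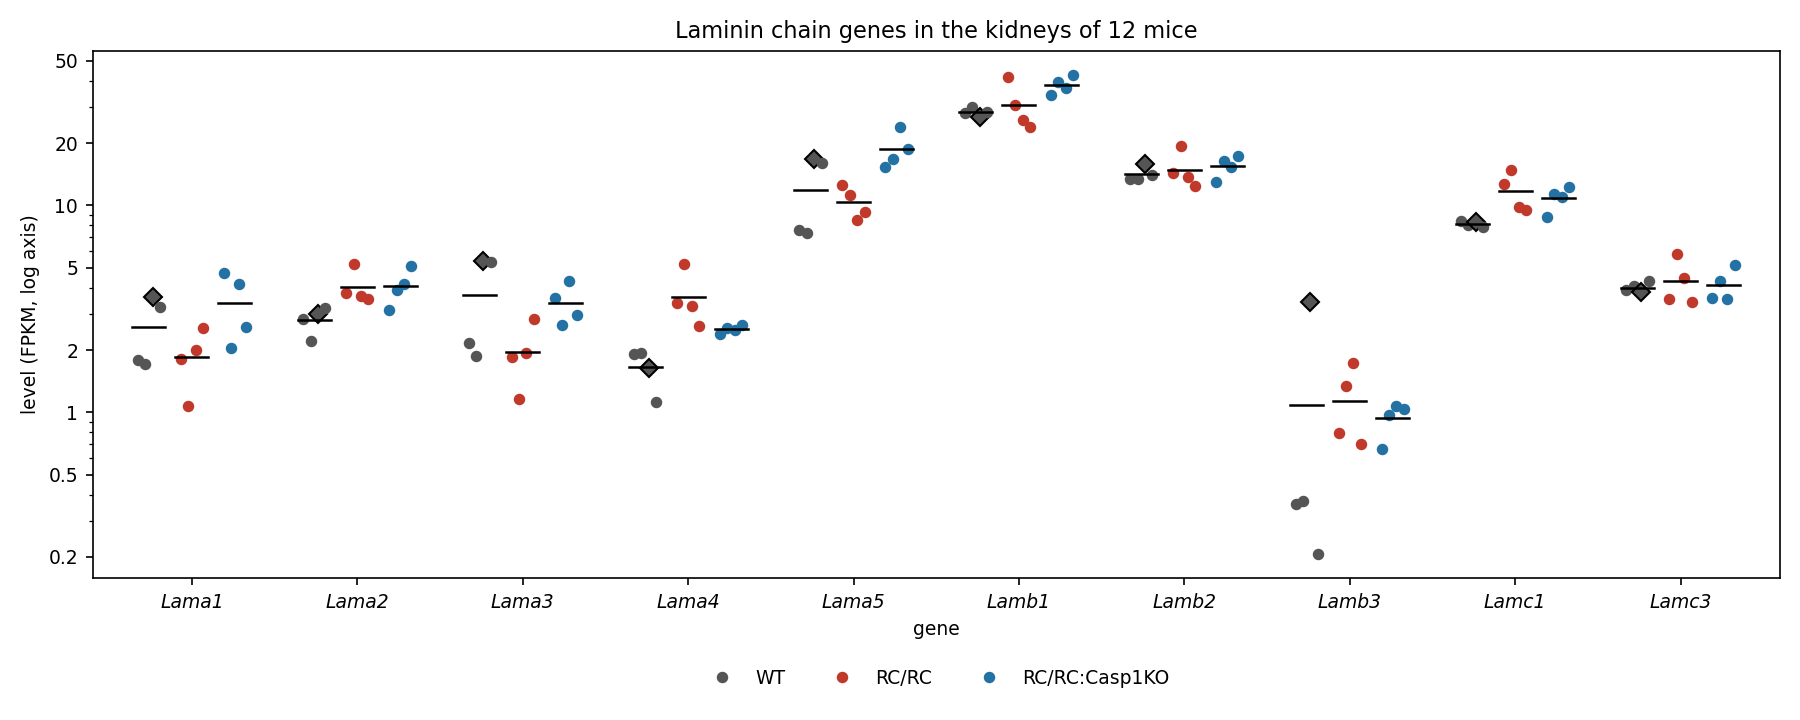
Level of laminin chain genes (y axis, FPKM on a log axis) in each mouse, by gene and group; black bars are group means over 4 mice and diamonds mark WT4. Lama5 in the RC/RC:Casp1KO mice (15.3 to 23.9 FPKM) lies above all RC/RC mice, and the diamond for Lamb3 (3.4 FPKM) stands far above the other WT mice.

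The second comparison asked what the loss of caspase-1 changed on the RC/RC background. It uses the same RC/RC mice as the first, so the values of the 2 comparisons are not independent. In RC/RC:Casp1KO against RC/RC kidneys, 1 of 36 genes was called higher (2.78%, against 7.23% of all 15428 genes) and 2 were called lower (5.56%, against 4.41%). Groups did not overlap for 2 genes that were higher, Lama5 and Itga2b (5.56%, against 11.3% of all genes), and 4 that were lower, Itga9, Itgb5, Itgb1 and Itga11 (11.1%, against 9.18%). The median log2 fold change was -0.02, beside -0.03 over all genes.

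Lama5 (ENSMUSG00000015647, chr2:180176373-180225859, minus strand) was the gene called higher. Its levels were 7.61, 7.39, 16.8 and 16.0 FPKM in WT2, WT3, WT4 and WT6, 12.5, 11.2, 8.51 and 9.33 FPKM in RC/RC mice, and 15.3, 16.7, 23.9 and 18.8 FPKM in RC/RC:Casp1KO mice. The double mutant lay wholly above RC/RC, while WT split into a low and a high pair that spanned the RC/RC range. The log2 fold change against RC/RC was 0.85 (SE 0.17, adjusted p = 0.0191), and against WT it was 0.65 (SE 0.30, adjusted p = 0.247). The call against RC/RC was lost without RC140 (0.76, adjusted p = 0.0603) or KO105 (0.84, adjusted p = 0.0591), and was not made with all 12 mice in one fit (0.86, adjusted p = 0.0575). As a share of the laminin alpha chain levels, Lama5 was 51.6% ± 4.44 in WT, 47.3% ± 4.37 in RC/RC and 58.1% ± 3.78 in RC/RC:Casp1KO mice (SD, n = 4 each). The alpha chains Lama1 (0.85, adjusted p = 0.103) and Lama3 (0.79, adjusted p = 0.0762) were not called, and Lama4 was -0.52 (adjusted p = 0.0997), or -0.26 (adjusted p = 0.238) without RC139. Without RC143, Lama3 was called higher (1.04, adjusted p = 0.0274) and Lama4 lower (-0.65, adjusted p = 0.0495), and without RC105 Lamb1 was called higher (0.50, adjusted p = 0.0404).

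In RC/RC:Casp1KO against RC/RC kidneys, 1 of 5 proximal tubule markers, Lrp2 (1.52, adjusted p = 0.0144), and 1 of 5 markers of the thick limb and distal tubule, Slc12a3 (1.44, adjusted p = 0.0454), were called higher, against 7.23% of all genes, with medians of 0.49 and 0.38. In RC/RC against WT, 1 of the 5 proximal markers, Slc5a2 (adjusted p = 0.0199), and 2 of the 5 thick limb and distal markers, Slc12a3 (-2.03, adjusted p = 0.00444) and Pvalb (adjusted p = 0.00855), were called lower, against 3.18% of all genes, with medians of -0.71 and -0.62. The proximal sum, led by Slc34a1, was 2288.8 to 3180.3 FPKM in WT, 1099.8 to 2638.8 in RC/RC and 2171.5 to 3147.2 in RC/RC:Casp1KO mice, and the groups overlapped. The thick limb and distal sum, led by Umod, was 1756.2 to 2982.6, 1267.9 to 2100.7 and 1432.4 to 2652.6 FPKM, also with overlap. No collecting duct marker was called in these comparisons. None of 5 podocyte and 5 endothelial markers was called in RC/RC:Casp1KO against RC/RC, with medians of 0.05 and -0.44. In RC/RC against WT, 1 of the 5 podocyte markers was called lower, against 3.18% of all genes, and no endothelial marker was called. The medians there were -0.32 and 0.34. The part of these markers in the Lama5 difference was not tested.

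Itga9 and Itgb5 were the genes called lower. Itga9 (ENSMUSG00000039115, chr9:118606690-118901003, plus strand) encodes a receptor chain for tenascin and Vcam1. It was 4.85, 3.94, 2.91 and 3.1 FPKM in WT, 5.11, 7.11, 4.09 and 4.19 FPKM in RC/RC and 2.56, 3.05, 3.11 and 2.86 FPKM in RC/RC:Casp1KO mice. The double mutant lay below RC/RC and overlapped with WT. Against RC/RC the log2 fold change was -0.82 (SE 0.18, adjusted p = 0.0232), and the call was lost without KO42 (-0.77, adjusted p = 0.0588), KO60 (-0.84, adjusted p = 0.0587) or KO105 (-0.82, adjusted p = 0.0688), and with library size alone in place of TMM scaling (-0.78, adjusted p = 0.0575). In the same comparison 3 of 5 fibroblast and pericyte markers were called lower (median -1.46, against 4.41% of all genes). Des, 1 of 4 smooth muscle and mesangial markers, was also called lower (-1.16, adjusted p = 0.0249). Among RC/RC mice, RC139 had the highest sum of both marker sets and the highest Itga9 and Itgb5. The part of these markers in the Itga9 and Itgb5 differences was not tested.

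Itgb5 (ENSMUSG00000022817, chr16:33829665-33949153, plus strand) encodes a beta chain that pairs with Itgav to bind vitronectin. Its levels were 61.1, 58.3, 44.9 and 45.8 FPKM in WT, 70.4, 89.7, 75.6 and 58.9 FPKM in RC/RC and 47.2, 47.6, 55.7 and 46.3 FPKM in RC/RC:Casp1KO mice. Again the double mutant lay below RC/RC and within the WT range. It was lower than RC/RC by a log2 fold change of -0.58 (SE 0.14, adjusted p = 0.0346), and was not called higher in RC/RC against WT (0.48, adjusted p = 0.0863) but was without RC143 (0.58, adjusted p = 0.0449), by DESeq2 (adjusted p = 0.0495) and with all 12 mice in one fit (adjusted p = 0.043). The call against RC/RC was lost without RC139 (-0.45, adjusted p = 0.0802) or RC140 (-0.57, adjusted p = 0.0903), or KO42 (-0.57, adjusted p = 0.0777), KO60 (-0.56, adjusted p = 0.089) or KO105 (-0.56, adjusted p = 0.1), and with library size alone (-0.54, adjusted p = 0.0739). Itgb5 made up 27.4% of the beta chain levels in WT, 33.2% in RC/RC and 26.9% in RC/RC:Casp1KO mice. Itgb1 differed by -0.32 (SE 0.11, adjusted p = 0.0876) and Itga11 by -1.32 (SE 0.43, adjusted p = 0.074) with no overlap between the groups. Without RC139 the Itga11 difference was -0.78 (adjusted p = 0.193). With all mice DESeq2 called Itgb1 and Itga11 lower, and Lama1 and Lama3 higher.

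Leukocyte integrins gave no call in this comparison, and KO70 decided several of them. With all mice the log2 fold changes of RC/RC:Casp1KO against RC/RC were -0.44 for Itgam (adjusted p = 0.55), -0.50 for Itgb2 (adjusted p = 0.281), -0.58 for Itgb7 (adjusted p = 0.215) and -0.14 for Itgal (adjusted p = 0.766). Without KO70 they were -1.26 for Itgam (adjusted p = 0.0128), -0.94 for Itgb2 (adjusted p = 0.0124), -0.97 for Itgb7 (adjusted p = 0.0211) and -0.46 for Itgal (adjusted p = 0.2). Itgax turned from 0.14 (adjusted p = 0.843) to -0.47 (adjusted p = 0.249). In that fit 5 of all the integrin and laminin genes were called lower, against 4.42% of all genes. They were Itgam, Itgb2 and Itgb7, and outside the leukocyte integrins Itga9 and Itgb5. Of the leukocyte markers, 2 of 9 for macrophages and dendritic cells, 1 of 6 for B and plasma cells and none of 6 for T and NK cells were called lower with all mice, against 4.41% of all genes, and 3 of 5 fibroblast and pericyte markers were. Ptprc differed by 0.10 with all mice and was not called. Its level was 11.2 FPKM in KO70, against 3.18 to 4.78 FPKM in KO42, KO60 and KO105.

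The third comparison set RC/RC:Casp1KO against WT kidneys, and shares its mice with the other comparisons. None of the 36 genes was called in either direction, against 1.13% of all 15346 genes called higher and 0.893% called lower. At an unadjusted p under 0.05, 14 genes were higher, against 11.8% of all genes, and none was lower, against 9.99%. DESeq2 called 6 genes higher, Itga5, Itgae, Itgal, Lama4, Lamb1 and Lamc1, against 4.44% of all genes it tested. In 7 genes, namely Itga7, Itgae, Itgal, Itgb2, Lama4, Lamb1 and Lamc1, each RC/RC:Casp1KO mouse was above each WT mouse (19.4%, against 7.47% of all genes), and none showed the opposite (against 6.22%). The median log2 fold change was 0.27 over the 36 genes and 0.90 over the leukocyte integrins, beside 0.01 over all genes. Itgam was 1.34 (adjusted p = 0.178), Itgax 1.10 (adjusted p = 0.188), Itgb2 0.90 (adjusted p = 0.162), Itgal 0.90 (adjusted p = 0.119) and Itgb7 0.76 (adjusted p = 0.217). These values rested on KO70: without it Itgam was 0.51 (adjusted p = 0.349), Itgax 0.48 (adjusted p = 0.397), Itgb2 0.45 (adjusted p = 0.264), Itgal 0.57 (adjusted p = 0.186) and Itgb7 0.35 (adjusted p = 0.468), and the median over the leukocyte integrins was 0.49. Without KO42, edgeR called 4 genes higher, against 1.95% of all genes in that fit, among them Itga5 (0.68, adjusted p = 0.0326), Lamb1 (0.50, adjusted p = 0.0332) and Lamc1 (0.51, adjusted p = 0.0237). Without WT4 it called Lamb3 (1.56, adjusted p = 0.0457).

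Lamb1 (ENSMUSG00000002900, chr12:31265234-31329644, plus strand) came nearest to a call in this comparison. RC/RC:Casp1KO mice had 34.1, 39.4, 37.1 and 42.8 FPKM, above the 26.7 to 29.8 FPKM of WT mice, whereas RC/RC mice spanned 23.8 to 41.7 FPKM. The log2 fold change against WT was 0.45 (SE 0.10, adjusted p = 0.051). The summed level of the 11 laminin genes was 75.9, 76.3, 92.5 and 87.8 FPKM in WT, 105.5, 102.0, 80.5 and 76.5 FPKM in RC/RC and 93.1, 107.4, 114.0 and 117.8 FPKM in RC/RC:Casp1KO mice, so that the double mutant lay wholly above WT and RC/RC overlapped with both.

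The ligands of integrins were examined beside their receptors. Of 10 tested soluble and matrix ligands, 5 were called higher in RC/RC against WT kidneys (against 9.76% of all genes) and none lower, with a median log2 fold change of 1.30. Postn, the gene of the matricellular protein periostin, rose by 2.39 (adjusted p = 0.0128), and Ccn1, a matrix protein induced by growth factors and stretch, rose by 2.13 (adjusted p = 0.000339). Tnc, which encodes tenascin-C, rose by 1.78 (adjusted p = 0.0418), and the thrombospondin gene Thbs1 by 1.18 (adjusted p = 0.00472). Fn1, the fibronectin gene and ligand of the Itga5 product, was the remaining one, with means of 4.81 FPKM in WT, 20.7 in RC/RC and 11 in RC/RC:Casp1KO mice. Between RC/RC:Casp1KO and RC/RC kidneys 4 of the 10 were called lower (against 4.41% of all genes) and none higher, namely Postn (-1.34, adjusted p = 0.0333), Ccn2 (-1.22, adjusted p = 0.0366), Emilin1 (-1.21, adjusted p = 0.0252) and Ccn1 (-1.16, adjusted p = 0.0034). Of the 5 fibroblast and pericyte markers, led by Dcn, all 5 were called higher in RC/RC against WT (median 2.47, against 9.76% of all genes called) and 3 were called lower in RC/RC:Casp1KO against RC/RC (median -1.46, against 4.41%). Their sum was 36.8 to 51.0 FPKM in WT, 155.4 to 341.6 in RC/RC and 60.2 to 115.2 in RC/RC:Casp1KO mice, and their part in the ligand differences was not tested.

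Of 7 tested cell surface ligands of leukocyte integrins, Vcam1 (1.68, adjusted p = 0.000208) and Icam1 (0.96, adjusted p = 0.000809) were called higher in RC/RC against WT (28.6%, against 9.76% of all genes) and none was called lower. None of the 7 was called in RC/RC:Casp1KO against RC/RC kidneys, where the median was -0.61. Vcam1, which leukocytes grip by the product of Itga4, had means of 4.87, 15.7 and 8.32 FPKM in WT, RC/RC and RC/RC:Casp1KO mice, and Icam1, bound by the products of Itgal and Itgam with Itgb2, had 6.96, 13.6 and 8.54 FPKM.

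Basement membrane partners of laminin were examined as well. Of 16 tested, 3 (18.8%, against 9.76% of all genes) were called higher in RC/RC against WT: Col15a1 (1.86, adjusted p = 0.00258), a collagen at the edge of basement membranes, Frem1 (1.61, adjusted p = 0.00377), a matrix protein of epithelia, and Nid1 (1.01, adjusted p = 0.0119), which links laminin to type IV collagen. None was called lower, and the median was 0.23. The calls of RC/RC:Casp1KO against RC/RC were 3 higher (18.8%, against 7.23% of all genes) and none lower (against 4.41%), namely Fras1 (1.04, adjusted p = 0.0171), Col4a3 (1.00, adjusted p = 0.0399) and Col4a4 (0.75, adjusted p = 0.0469). Col4a3, a type IV collagen chain of the glomerulus and distal tubules, had means of 30.9 FPKM in WT, 15.0 in RC/RC and 29.9 in RC/RC:Casp1KO mice. Against WT, the double mutant had 1 call, Ntn4 (-0.62, adjusted p = 0.0409), a netrin that binds laminin gamma chains. That is 6.25% of the list called lower, against 0.893% of all genes.

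Of 6 non-integrin laminin receptors and tetraspanin partners, the syndecan gene Sdc1 (1.19, adjusted p = 0.00138) and Bcam (0.93, adjusted p = 0.0374), which encodes a receptor for the Lama5 chain, were called higher in RC/RC against WT (33.3%, against 9.76% of all genes). Against RC/RC, 4 of the 6 were called lower (66.7%, against 4.41% of all genes) and none higher in RC/RC:Casp1KO kidneys, namely Bcam (-0.83, adjusted p = 0.0449), Sdc1 (-0.76, adjusted p = 0.0294), Cd9 (-0.51, adjusted p = 0.0318) and Cd151 (-0.48, adjusted p = 0.0375). The last pair are tetraspanins, and Cd151 binds laminin-receptor integrins directly. In RC/RC:Casp1KO against RC/RC, 3 of 5 fibroblast and pericyte markers were called lower (median -1.46, against 4.41% of all genes). So was 1 of 4 smooth muscle and mesangial markers (median -0.82). All 6 B and plasma cell markers were called higher in RC/RC against WT (against 9.76%), and 1 of 6 was called lower in RC/RC:Casp1KO against RC/RC. The part of these markers in the receptor differences was not tested. Of 23 tested genes of integrin activation and the adhesion plaque, 4 were called higher in RC/RC against WT (17.4%, against 9.76% of all genes) and none lower, with a median of 0.12. They were Apbb1ip (1.39, adjusted p = 0.0031) and Fermt3 (1.05, adjusted p = 0.00693), both integrin activators of blood cells, and the actin-binding genes Actn1 (0.94, adjusted p = 0.0118) and Flna (0.82, adjusted p = 0.031). Zyx, a zyxin of focal adhesions, was the 1 gene of that list called in RC/RC:Casp1KO against RC/RC, at -0.40 (adjusted p = 0.0465), which is 4.35% of the list against 4.41% of all genes called lower.

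**Figure D5:**
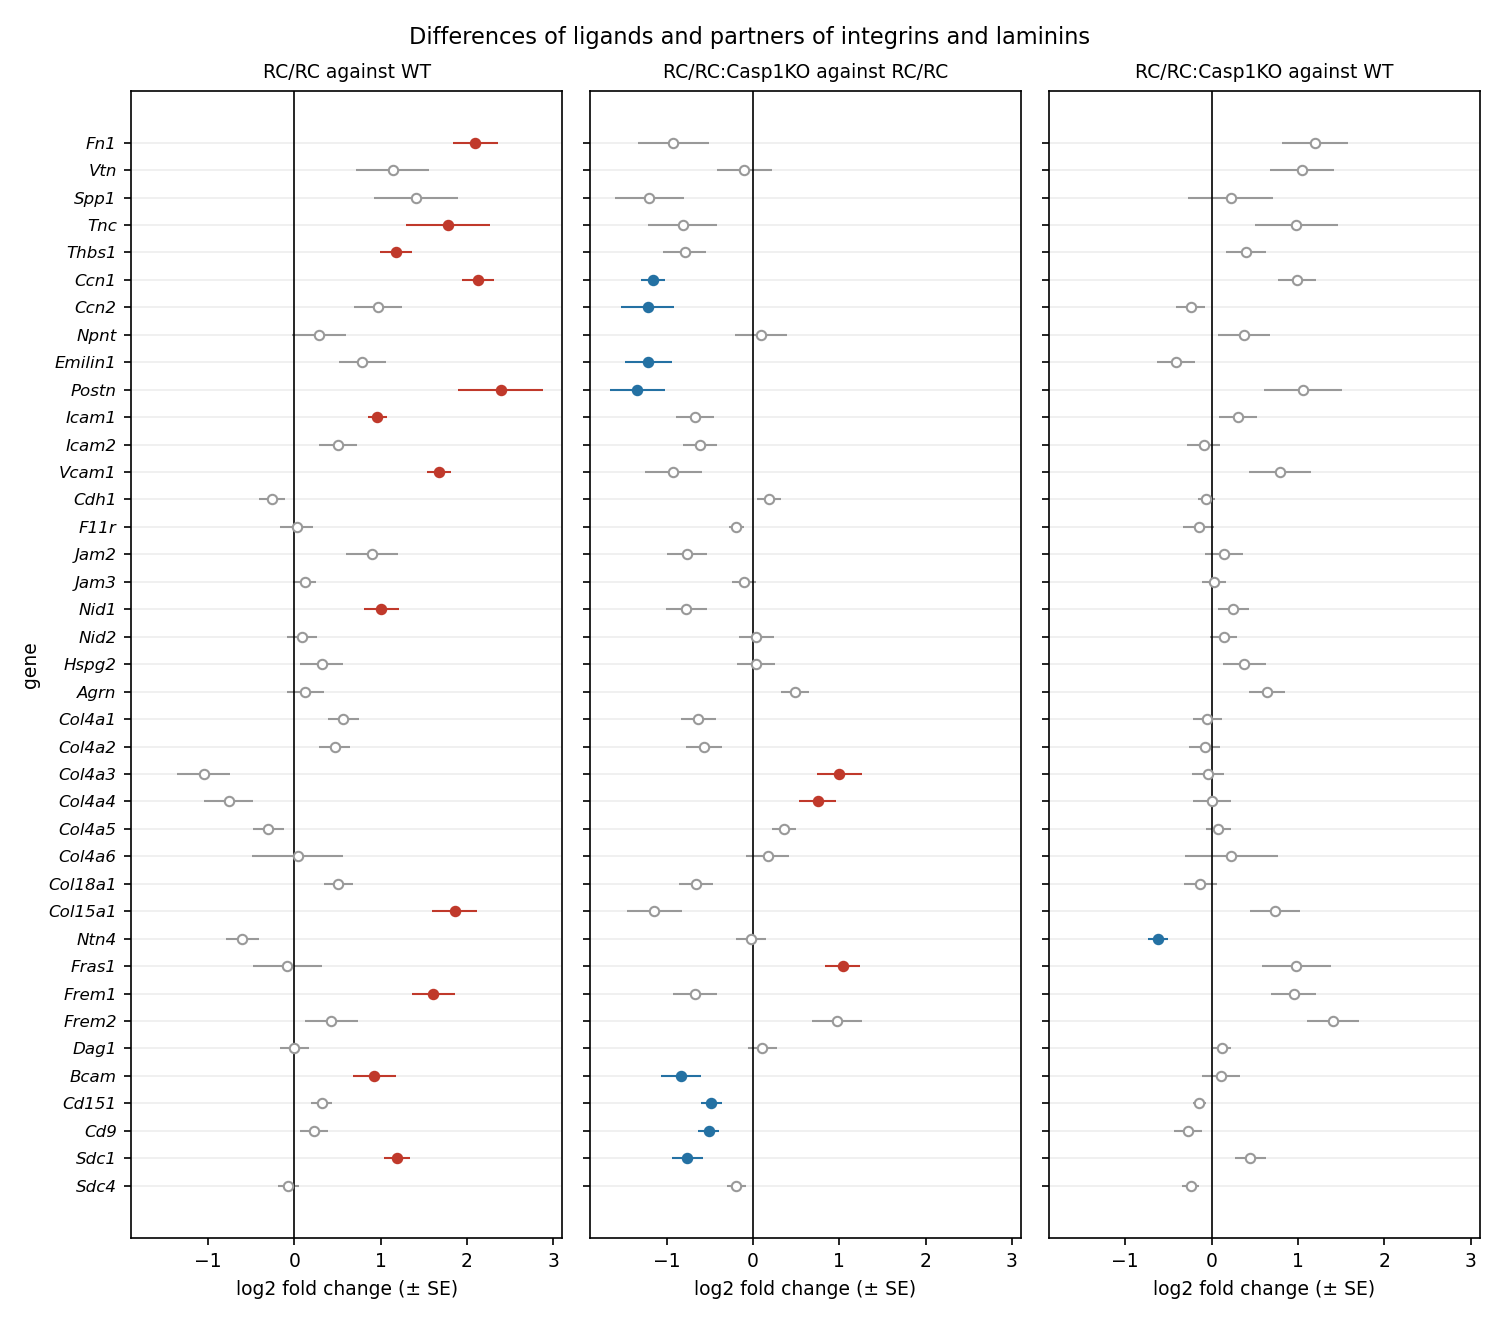
Log2 fold change (x axis) of ligands, basement membrane partners and non-integrin receptors (y axis) in each comparison of 4 against 4 mice, from edgeR; bars are ± SE, filled red points were called higher, filled blue lower and open grey not called. Fn1, Ccn1 and Postn lie above 2 in RC/RC against WT, and Ccn1, Ccn2, Emilin1 and Postn are blue in RC/RC:Casp1KO against RC/RC.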

How the data were processed

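Poly(A) kidney RNA was sequenced and analysed by a sequencing company. The authors deposited raw read counts per gene with gene lengths and positions on mm10, and the submitters' processing notes name STAR and CASAVA 1.8. Their columns of FPKM, fold changes and p-values were not used. No column belonged to another series.

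The genes, gene lists and tests were chosen with earlier results of these data known. Columns were assigned to groups by name. Counts were tested in each pair of groups with edgeR 4.0.16 in R 4.3.3, which was tested on simulated data. The settings were filterByExpr, TMM, the quasi-likelihood F-test without its robust option, and Benjamini-Hochberg adjustment over all genes tested. Totals were 18019819 to 24869454 counts per mouse, and the p-values set the difference between groups against the spread between mice. FPKM were computed from the counts, TMM-scaled totals and deposited lengths. No library repeated another: in all 18 pairs within groups, counts differed by 15.7 to 128.0 times what sampling gives (chi-square over its degrees of freedom). WT divided into WT2 with WT3 (17.7) and WT4 with WT6 (16.4), against 89.8 to 127.0 across these pairs. RC/RC:Casp1KO divided into KO60 with KO105 (15.7) and KO42 with KO70 (31.8), against 67.1 to 93.4 across. The fits had no term for this division, and its cause was not tested.

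Values per mouse are given for genes called in any comparison, at most 4 per list by size of the difference in RC/RC against WT, and for the most abundant chain of each class, and other genes of the pathway are named, up to 2 at each end, from those called in a list; others named, and the values per mouse of Itgb8, Lama1, Lama3 and Lamb3, were chosen after their values were seen. Of 180 genes in the lists all matched, 5 by an older symbol. Alternatives were DESeq2 1.42.0, RLE factors, library size alone, 2 other count filters, all 12 mice in one fit, and leaving out each mouse. BLAST 2.17.0 searched transcripts for near copies of at least 300 bases and 95% identity. Values of 1 of the 37 genes, and the overlap of another with a neighbour, are not reported here.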

Additional observations from a re-analysis of the deposited data

Results flagged for a closer look

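In 108 sets of 4 mice (36 genes in 3 groups), 13 held a mouse whose distance to its nearest neighbour took up more of the whole range than Dixon's 95% critical value for 4 samples, which chance exceeds in about 1 set of 20. KO70 accounted for 6 of them, standing highest in its group for Itgb2 (7.63 FPKM), Itgam (3.67), Itgb7 (3.91), Itgal (2.94), Itgb3 (0.676) and Itgb5 (55.7). RC139 was highest in its group for Lama2 (5.21 FPKM), Itga11 (0.963) and Itga10 (0.396). WT4 was highest for Lamb3 (3.40 FPKM) and Itga2 (0.687). In RC/RC:Casp1KO mice, Itga8 was highest in KO105 (4.77 FPKM). Itgad was highest in RC140 (0.0657 FPKM), which rests on 5 counts.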

How the results depend on the processing

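The 5 calls for Itgam, Itgb2, Itgb7, Itgal and Lama4 in RC/RC against WT passed the 6 alternatives and each of the 8 fits without 1 mouse. Over the integrin and laminin genes, calls higher in RC/RC against WT ranged from 6 to 11 when 1 mouse was left out, and calls lower from 0 to 1. For RC/RC:Casp1KO against RC/RC, calls higher were 3 by DESeq2, 0 with all 12 mice in one fit and 0 to 2 with 1 mouse left out; calls lower were 4 by DESeq2, 0 with library size alone and 0 to 5 with 1 mouse left out. For RC/RC:Casp1KO against WT, calls higher were 6 by DESeq2, 1 with library size alone and 0 to 4 with 1 mouse left out. Of all genes, DESeq2 called 4.44% higher there and the main edgeR test 1.13%, or 1.95% without KO42. In RC/RC:Casp1KO against RC/RC without KO70, 4.42% of all genes were called lower. For the other fits no share over all genes is given, so their counts are not read as results about these genes. Library size alone moved the median of all genes by 0.13 on the log2 scale in RC/RC:Casp1KO against WT, and there turned Itgb1 to 0.09, Itgb5 to 0.05 and Lama3 to 0.01. Leaving out 1 mouse changed the sign of other small differences, with ranges of -0.33 to 0.33 for Itga4, -0.08 to 0.15 for Itgae, -0.46 to 0.04 for Itgal, -0.47 to 0.37 for Itgax and -0.19 to 0.05 for Lamc1 in RC/RC:Casp1KO against RC/RC. In RC/RC against WT the ranges were -0.10 to 0.21 for Lamb1 and -0.29 to 1.83 for Lamb3, and in RC/RC:Casp1KO against WT -0.34 to 0.11 for Lama3 and -0.56 to 1.56 for Lamb3. The cause was not tested. A minimum of 10 counts in every mouse left no value for Itga11 in the comparisons with WT. No paired analysis was possible because the count columns carry mouse numbers and not the replicate numbers of the labels. Depth limits Itga11, Itga2, Itga10 and Itgad most, and 4 mice a group limit every comparison.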
